A study of Mus musculus with 4 samples.

Results

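Galectins are lectins that bind beta-galactoside sugars on glycoproteins and glycolipids. They are made without a signal peptide, act in the cytosol and nucleus, and are also released to the cell surface and matrix. Outside the cell they crosslink receptors and matrix proteins, and inside the cell several of them bind glycans exposed on damaged endosomes and lysosomes. In liver, galectin-3 is known mainly from macrophages, bile duct cells and injured tissue, and galectin-1 from stellate and endothelial cells. The genes described here are Lgals1, Lgals3, Lgals4, Lgals8 and Lgals9, which encode galectins, and Lgals3bp, which encodes a secreted glycoprotein that binds galectin-3 and is not itself a galectin. These 6 genes were found by matching the RefSeq accession of each array probe to the gene symbol, which gave 8 of the 41174 probes. They were selected on their HepKO over WT ratios on the 4 arrays, so their values are a description and carry no test. All 6 passed the filter on dim probes and stand among 11505 named genes measured.

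The study compared liver cell RNA of Pnpt1 knockout mice with that of control mice on 4 two-colour Agilent arrays. Pnpt1 encodes PNPase, which degrades RNA and sits mostly in mitochondria. HepKO mice had the genotype Albumin-Cre/wt Pnpt1 fl/fl, in which Cre is driven by the Albumin promoter that acts in hepatocytes. WT mice were Pnpt1 fl/fl without Cre, so both genotypes carried the floxed alleles. All mice were C57BL/6J, and 1 HepKO and 1 WT mouse made up each of 2 litter-matched pairs. The pair labelled male was 12.29 weeks old, although some labels give another age for it, and the pair labelled female was 4.29 weeks old. Body weights were 17.37 g in HepKO and 22.7 g in WT in the pair labelled male, and 16.81 g in HepKO and 18.49 g in WT in the pair labelled female. The RNA of a pair was put on 2 arrays, once with each dye orientation, and these arrays share their extracts, so n = 2 pairs throughout. The cells came from collagenase-perfused liver, and the protocols name no sort for hepatocytes. In such bulk RNA, fewer cells of a type and less RNA per cell cannot be told apart.

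The labelled sexes went against the sex-linked genes in both genotypes. In the pair labelled male, Xist, transcribed from the inactive X chromosome, exceeded background clearly on 2 of 2 arrays, and in the pair labelled female on 0 of 2. Kdm5d, Ddx3y and Eif2s3y, which are Y-linked, showed the opposite. The pairs are therefore called by their labels, and the ages and weights printed for a pair may belong to the other one. The ratios within a pair do not use the labelled sex. A difference between the pairs cannot be assigned, since slide, litter, single animals, age and sex cannot be told apart there. Of the targeted gene's 2 probes, A_51_P453343 for Pnpt1 ranged between -0.38 and 0.31 on the log2 HepKO over WT scale over the 4 arrays. The other Pnpt1 probe, A_52_P229271, ranged between -0.67 and -0.32. The sources used here do not give the deleted part of the gene, and a probe outside it would check nothing.

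Interferon, STAT and AP-1 factors are known regulators of immune genes, and the promoters of the galectin genes were searched for 4 short motifs on both strands. The sequences are those of RefSeq on GRCm38.p6, taken as 250 bases before to 50 bases after the gene start. Entries matched 5 of the 6 genes, all but Lgals1. Shown are the stretches from base -120 to base 30, counted from the start, for Lgals3bp and Lgals9, which hold a match to AANNGAAA, the core of interferon regulatory factor (IRF) sites, and for Lgals3, which had the highest HepKO over WT ratio and no match. Capitals mark AANNGAAA or its reverse complement.
Lgals3bp, chr11:118401930-118402079, minus strand: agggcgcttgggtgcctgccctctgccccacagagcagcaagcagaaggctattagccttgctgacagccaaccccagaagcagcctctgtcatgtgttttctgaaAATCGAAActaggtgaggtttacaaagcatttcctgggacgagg
Lgals9, chr11:78984895-78985044, minus strand: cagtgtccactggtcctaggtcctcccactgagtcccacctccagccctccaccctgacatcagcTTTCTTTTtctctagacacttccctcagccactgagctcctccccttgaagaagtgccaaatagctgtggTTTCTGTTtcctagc
Lgals3, chr14:47373740-47373889, plus strand: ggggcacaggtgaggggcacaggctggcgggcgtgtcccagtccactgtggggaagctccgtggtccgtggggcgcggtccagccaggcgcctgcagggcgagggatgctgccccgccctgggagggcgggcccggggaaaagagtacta

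In the Lgals3bp promoter the match AATCGAAA lay at bases -14 to -7 from the start. In the Lgals9 promoter the 2 matches in capitals lay at bases -55 to -48 and 16 to 23, and another lay at -151 to -144, outside the stretch shown. Both matches in capitals in Lgals9 were part of matches to the longer interferon-stimulated response element, which is AANNGAAA with GA before it and so always overlaps it. This element was in 3.44% of 32851 RefSeq promoters of 300 bases and in 1 of the 5 galectin gene promoters, that of Lgals9. AANNGAAA was in 23.9% of all promoters and in 2 of the 5, and it was added to the search after the sequences had been seen. The STAT motif TTCNNNGAA was in 8.3% of all promoters and the AP-1 motif TGANTCA in 7.81%, and neither was in any of the 5. A match of letters is a description of the window and says nothing of binding.

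Lgals3, Lgals1 and Lgals3bp were 8.91-fold to 12.0-fold above WT in HepKO cells, Lgals9 was 2.43-fold above WT, Lgals8 differed little, and Lgals4 lay slightly below WT. Levels below are normalized log2 intensities, 1 per mouse as the mean of its 2 arrays, and are compared only within a probe. Ratios are log2 HepKO over WT, and errors of the 6 genes are the SD of the 2 pairs. In all 8 probes the signal was well above background on 4 of 4 arrays in both genotypes.

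Lgals3 encodes galectin-3, the only galectin with a collagen-like tail, which lets it form multimers. Its level was 11.44 in the HepKO mouse labelled male and 10.86 in the HepKO mouse labelled female, against 7.08 and 8.05 in their WT partners. Both HepKO mice lay above both WT mice, and the WT mice differed more from each other than the HepKO mice did. The log2 ratios were 4.61 and 4.12 on the arrays of the pair labelled male, and 3.02 and 2.61 on those of the pair labelled female. The mean was 3.59 ± 1.10, a 12.0-fold higher level in HepKO, which placed Lgals3 at rank 53 from the highest ratio of 11505 genes. By pair the fold was 20.6 in the pair labelled male and 7.02 in the pair labelled female, a difference between single pairs that was not tested.

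Lgals1 encodes galectin-1, a homodimer with 1 sugar-binding domain per subunit that is known to curb T cell responses. Its level was 11.57 in the HepKO mouse labelled male and 12.57 in the HepKO mouse labelled female, against 8.76 and 8.80 in their WT partners. The WT mice were nearly level, and the HepKO mice stood apart from each other in the order opposite to that of Lgals3. The ratios of 3.14, 2.47, 3.98 and 3.56 over the 4 arrays, the pair labelled male first, averaged 3.28 ± 0.68. That is a 9.74-fold higher level in HepKO, at rank 70. The near-identical pseudogene Lgals1-ps1 could share signal with the Lgals1 probe, which makes the source of that signal uncertain.

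Lgals3bp encodes a heavily glycosylated, interferon-inducible protein that binds galectin-3, integrins and matrix proteins. Its level was 15.54 and 15.07 in the HepKO mice labelled male and female, against 12.01 and 12.29 in the WT mice. The groups did not overlap, and within each genotype the mice lay close together. Over the 4 arrays its log2 ratios were 3.98, 3.08, 3.01 and 2.54, with a mean of 3.15 ± 0.53. The corresponding fold was 8.91, at rank 95.

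Lgals9 encodes galectin-9, which has 2 sugar-binding domains joined by a linker and is known as an interferon-induced ligand of the T cell receptor Tim-3. Its level was 13.79 and 13.55 in the HepKO mice labelled male and female, against 12.38 and 12.40 in the WT mice. The log2 ratios of 1.42, 1.41, 1.05 and 1.24 over the 4 arrays were the most alike of the 4 genes with the highest ratios. Their mean was 1.28 ± 0.19, at rank 875, and the groups did not overlap.

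Lgals8 encodes galectin-8, a galectin with a pair of sugar-binding domains that recruits an autophagy receptor to damaged vesicles. On the brighter probe, A_51_P316981, the level was 12.25 and 11.70 in the HepKO mice labelled male and female, against 11.66 and 11.43 in the WT mice. The log2 ratio moved with the dye. With HepKO in Cy3 it was 0.98 and 0.51, and with HepKO in Cy5 it was 0.19 and 0.024, in the pairs labelled male and female. The mean over both orientations was 0.43 ± 0.23, a 1.34-fold higher level in HepKO. The other probe, A_52_P598128, averaged 0.12 ± 0.034, was below 0 on 1 array at -0.11, and its levels overlapped between the genotypes at 11.50 and 11.11 in HepKO mice and 11.41 and 10.97 in WT mice. The probes thus disagreed in size and not in the sign of the mean.

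Lgals4 encodes galectin-4, a tandem-repeat galectin of the gut epithelium that is known for lipid raft sorting. Its level on the brighter probe, A_51_P497100, was 7.65 and 8.41 in the HepKO mice labelled male and female, against 8.02 and 8.85 in the WT mice. Within each pair the HepKO mouse was lower, but the difference between the pairs was larger than that between the genotypes, so the groups overlapped. The ratios of -0.42, -0.32, -0.37 and -0.50 averaged -0.40 ± 0.046, an inverse fold of 1.32 (WT over HepKO). The dimmer probe, A_52_P634250, gave a mean of -0.34 ± 0.092. Lgals6 is a close paralog of Lgals4 with no named probe here, and the Lgals4 probes could detect it too.

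**Figure D1:**
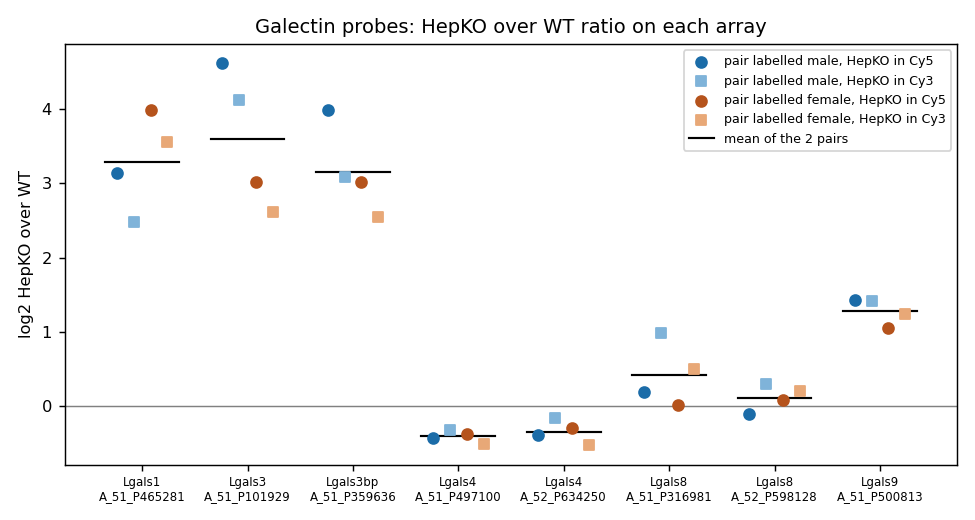
Log2 HepKO over WT ratio (vertical axis) of the 8 galectin gene probes on each of the 4 arrays, with colours for the pairs, symbols for the dye of HepKO and a black line at the mean of the 2 pairs. The probes of Lgals1, Lgals3, Lgals3bp and Lgals9 lie above 1 on every array, the Lgals4 probes lie below 0 on every array, and the Lgals8 probes lie between -0.11 and 0.98 with the higher values where HepKO was in Cy3.

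**Figure D2:**
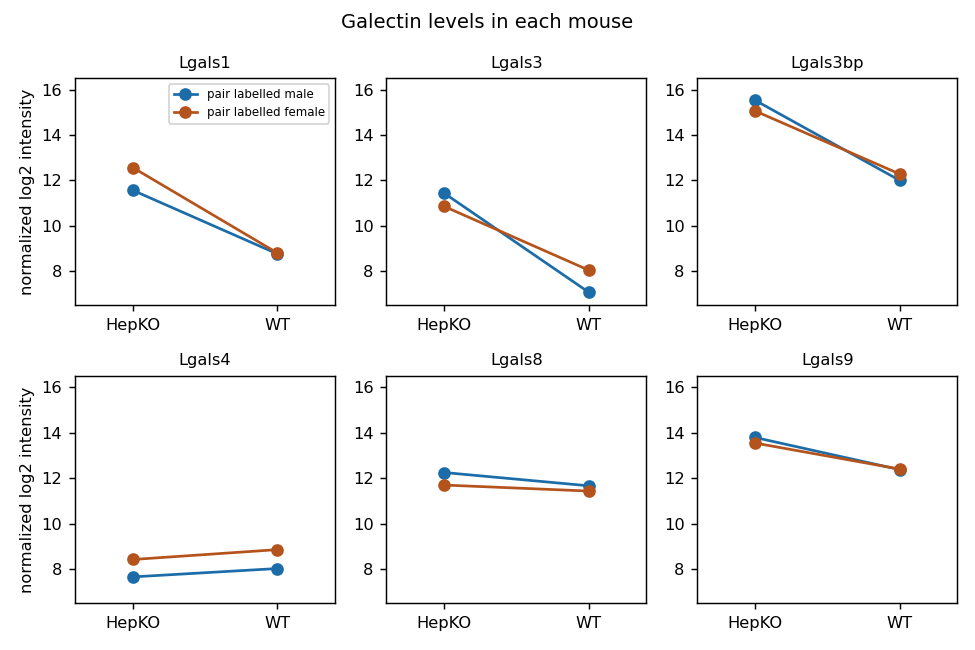
Normalized log2 intensity (vertical axis) of the brightest probe of each gene in the HepKO and the WT mouse of each pair, with a line joining the mice of a pair. For Lgals3 the line of the pair labelled male is the steeper one, at 11.44 in HepKO and 7.08 in WT, and for Lgals1 that of the pair labelled female, at 12.57 in HepKO and 8.80 in WT.

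Across the genes, 5 of 6 had a ratio above 0 on all 4 arrays, as did 39.4% of all genes, and Lgals4 was below 0 on all 4, as were 25.0%. Both HepKO mice exceeded both WT mice for the same 5 genes, as they did for 41.9% of all genes, and the reverse order, shown by 26.8% of all genes, was found in none of the 6. These shares are a background for counts that the choice of the genes used, and nothing is read from them. The median of the 6 log2 ratios was 2.22, with 2.11 in the pair labelled male and 1.96 in the pair labelled female, beside a median of 0.083 over all genes. The largest difference between the pairs was in Lgals3, with a male minus female pair difference of 1.55 on the log2 scale, while that of Lgals1 was -0.96. Lgals1, Lgals3 and Lgals3bp had higher ratios on the array with HepKO in Cy5 than on that with HepKO in Cy3 in both pairs, by less than their distance from 0.

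For each gene, the 3 genes with the most similar ratios were found by the root mean square difference of log2 HepKO over WT over the 4 arrays. Nearest to Lgals3 were Ifi204, an interferon-induced DNA sensor, at a difference of 0.109, Rgs2, a regulator of G protein signalling, at 0.146, and Ms4a6b at 0.149. Nearest to Lgals1 were Stmn1, which destabilises microtubules, at 0.182, Npdc1 at 0.204 and Nipal2 at 0.210. Nearest to Lgals3bp were the channel gene Panx1 at 0.140, the interferon-induced GTPase Gbp9 at 0.148 and Slfn2 at 0.165. Lgals9 was nearest to Nudt18 (0.0584), Aldh3b1 (0.0777) and the phosphate transporter Slc20a1 (0.102). The genes nearest to Lgals8 were Ptp4a1, Ino80 and Brix1 at 0.0747 to 0.0998, and those nearest to Lgals4 were Gabrr1, Naxe and Ercc6l2 at 0.0393 to 0.0546. Differences near 0 are easier to reach for genes of small ratio, where more genes lie.

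Of the other galectin family genes, Lgals2, Lgals7 and Lgals12 were not well above background on any array in either genotype. No probe was named for Lgals6 or Grifin. Lgalsl, which encodes a galectin-like protein thought not to bind sugars, was the only other family gene that passed the filter on dim probes. Its level was 9.85 and 10.21 in the HepKO mice labelled male and female, against 10.65 and 10.78 in the WT mice, so both HepKO mice lay below both WT mice. Its log2 ratio was -0.69 ± 0.15 (SE), and it did not pass in the limma fit over all genes (adjusted p = 0.0566). The adjusted p ranged between 0.0481 and 0.138 over the alternatives, with 0.0481 when female pair replicate 2 was left out.

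Galectins read the sugars that glycosyltransferases build, so genes of that pathway were described next. In the limma fit 15.6% of all genes passed an adjusted p of 0.05, with 11.9% higher and 3.69% lower in HepKO. Of the 11505 genes, 557 were not well above background on any array in WT, and 48 in HepKO. The filter thus kept more genes through HepKO alone than through WT alone. Of 31 measured enzymes that build or trim galectin-binding glycans, 5 were higher, 1 was lower and 25 did not pass, and their median log2 ratio of 0.078 stood beside 0.083 for all genes. Errors of the tested genes are moderated SE.

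The enzyme that was lower, Man2a2, is a Golgi mannosidase that trims N-glycans on the way to complex branches. Its level was 9.08 and 9.42 in the HepKO mice labelled male and female, against 10.57 and 10.52 in the WT mice, and the groups did not overlap. The change was -1.30 ± 0.17 (limma, adjusted p = 0.0231). Gcnt2, which branches the polylactosamine chains that galectins bind, rose by 1.02 ± 0.20 (adjusted p = 0.0445 in limma). Its level was 9.37 and 8.69 in HepKO mice and 8.07 and 7.96 in WT mice, and its other probe gave 0.25. The galactosyltransferases B4galt6 (0.91 ± 0.14) and B4galt4 (0.83 ± 0.14) also passed, with adjusted p of 0.0301 and 0.0352 in limma. In WT, B4galt6 was well above background on 1 of 4 arrays. Mgat4a, which adds an N-glycan branch, and the sialidase gene Neu3 made up the rest, at 0.79 and 0.77. The calls of Gcnt2, B4galt4 and Neu3 were lost without male pair replicate 2 or female pair replicate 1, that of Mgat4a without male pair replicate 2, those of B4galt6 and Mgat4a with the stricter filter on dim probes, and that of Gcnt2 also with the Feature Extraction ratio, the authors' table and the mean of its probes.

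Among 29 measured glycoproteins known as galectin ligands or receptors, 8 were higher, 1 was lower and 20 did not pass. Of all genes, 11.9% were higher and 3.69% lower. The median of the 29 was 0.24, the value of Itgam, whose WT signal was not well above background. In WT, 4 of the 29 were not well above background on any array, and in HepKO 0 were. The median of the list was 1.18 with the Feature Extraction ratio and 0.088 with the stricter filter on dim probes. Ptprc, the leukocyte phosphatase CD45 to which galectin-1 binds on T cells, had levels of 10.51 and 9.91 in the HepKO mice labelled male and female, against 7.14 and 7.74 in the WT mice. Its ratio was 2.77 ± 0.33 (limma, adjusted p = 0.0197), and its 3 probes ranged between 0.75 and 2.84. Tgfbr2, a TGF-beta receptor, had levels of 11.48 and 11.23 in HepKO mice, against 9.34 and 9.46 in WT mice. It was higher by 1.95 ± 0.17 (limma, adjusted p = 0.0153), and its other probe gave 0.69.

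Cd44, the hyaluronan receptor, was higher by 1.67 ± 0.19 (adjusted p = 0.0189 in limma), with levels of 9.10 and 9.18 in HepKO mice and 7.17 and 7.77 in WT mice. Nrp1, a co-receptor of VEGF and semaphorins, ran the other way. Its level was 8.26 and 8.82 in HepKO mice, against 9.88 and 10.61 in WT mice, a change of -1.71 ± 0.15 (adjusted p = 0.0153 in limma). The other Nrp1 probe gave -0.49. The leukocyte sialoprotein gene Spn, Lamc1, Itga5, Kdr and Thy1 made up the rest of those that were higher, at 0.88 to 1.42. The calls of Spn and Thy1 were lost without male pair replicate 2 or female pair replicate 1, that of Spn also with the stricter filter, and that of Thy1 also when spots with outlying local background were left out. Ptprc, Spn and Thy1 mark leukocytes or other cells than hepatocytes, and Kdr also stands in the endothelial marker list below.

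Of 26 measured genes of vesicle damage response and autophagy, 3 were higher, 1 was lower and 22 did not pass. Beside them, 11.9% of all genes were higher and 3.69% lower. The list median was -0.0017. The members that were higher were the lysosomal protease genes Ctsl at 1.19 ± 0.14, Ctsd at 1.00 ± 0.15 and Ctsb at 0.90 ± 0.14 (limma, adjusted p of 0.0202, 0.0281 and 0.0310). Ctsl had levels of 16.52 and 16.14 in HepKO mice, against 15.35 and 14.92 in WT mice. The probes of Ctsb disagreed in sign, with -0.46 on the dimmer one. Sqstm1 had the largest ratio of the list, 1.65 ± 0.42, and did not pass (limma, adjusted p = 0.0739). Its ratio was 2.45 in the pair labelled male and 0.84 in the pair labelled female, and it passed in 3 of 14 alternatives. Map1lc3a, an LC3 gene whose product coats autophagosomes, was lower at -1.36 ± 0.16 (limma, adjusted p = 0.0204), with levels of 8.82 and 9.36 in HepKO mice and 10.34 and 10.55 in WT mice. With median centring in place of loess, the calls of all 3 cathepsin genes were lost, as was that of Ctsd without male pair replicate 2 and that of Ctsb without female pair replicate 1. The call of Ctsb was also lost with the Feature Extraction ratio, the authors' table and the mean of its probes. With the background model estimated on all spots, or with no filter on dim probes, no gene of any of these lists passed, nor did any gene on the array, as given under the processing alternatives.

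**Figure D3:**
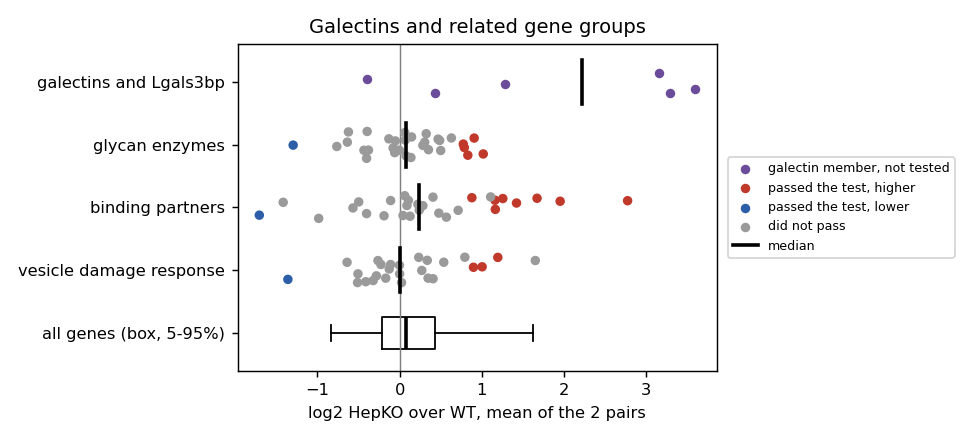
Log2 HepKO over WT (horizontal axis, mean of the 2 pairs) of the 6 galectin genes, of 3 lists of related genes and of all 11505 genes, with 1 point per gene, colour for the limma call and a black line at the median. The box spans the quartiles of all genes and its whiskers the 5th to 95th percentiles. The lists of related genes have medians of 0.078, 0.24 and -0.0017, while 4 of the 6 galectin genes lie above 1.

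Galectin genes are expressed in several liver cell types, and markers of cell types other than hepatocytes were measured in the same samples, beside 11.9% of all genes higher and 3.69% lower in HepKO. Of 17 measured macrophage markers, 14 were higher and 0 lower in limma, with a median of 1.94. Their mean level was 10.35 and 10.57 in the HepKO mice labelled male and female, against 8.32 and 9.07 in the WT mice. Marco, a macrophage scavenger receptor, led with 4.26 ± 0.29, and the Fc receptor gene Fcgr1 followed with 3.28 ± 0.40. Cd163 ran the other way at -0.75 ± 0.18 and did not pass (limma, adjusted p = 0.0671). It passed as lower with the Feature Extraction ratio and with the authors' table. In WT the probes of Gpnmb, Ccr2 and Itgam were not well above background, and in HepKO that of Itgam was on 2 of 4 arrays and the others on all 4.

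By pair, the macrophage median was 2.13 in the pair labelled male and 1.61 in the pair labelled female. The neutrophil median was 1.42 and 0.55, with 3 of 8 markers higher, led by S100a9 at 3.21 ± 0.18. Of the neutrophil markers, 1 passed without male pair replicate 2, and 1 without female pair replicate 1. Mpo was next at 1.77 ± 0.49 and did not pass (limma, adjusted p = 0.0863). The neutrophil mean level was 8.01 and 7.07 in HepKO mice and 6.43 and 6.29 in WT mice, and Camp, Retnlg and Elane were not well above background in WT. With the Feature Extraction ratio the neutrophil median over both pairs was 2.84, against 0.97 here. Lymphocyte markers had 8 of 13 higher, led by Gzmb at 2.83 ± 0.35 and Nkg7 at 2.20 ± 0.19. Their median of 0.99 is the value of Gzma, whose WT signal was not well above background, and it was 2.89 with the Feature Extraction ratio. The stricter filter on dim probes left 4 of the 13 lymphocyte markers and 1 of the 8 neutrophil markers. The lymphocyte mean level was 7.60 and 7.40 in HepKO mice and 6.33 and 6.43 in WT mice. Ms4a1 and Klrb1c were also among the lymphocyte markers not well above background in WT.

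Endothelial markers had 8 of 13 higher, with medians of 0.86 in the pair labelled male and 1.11 in the pair labelled female. Cd34 at 2.61 and Lyve1 at 2.07 led them. The endothelial mean level was 9.09 in both HepKO mice, against 8.20 and 7.90 in the WT mice, and Vwf was not well above background in WT. Stellate cell and fibroblast markers had 6 of 14 higher and pair medians of 0.61 and 0.74, led by the collagen genes Col3a1 at 2.14 ± 0.33 and Col1a2 at 1.62 ± 0.22. Without male pair replicate 2, 2 of the stellate cell and fibroblast markers passed. The mean level of the list was 8.67 and 8.73 in HepKO mice, against 8.04 and 7.79 in WT mice.

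Cholangiocyte markers had 1 of 7 higher, Spp1 (osteopontin) at 3.96 ± 0.40, with pair medians of 0.41 and 0.81. Cldn7, which like Epcam was not well above background in WT, was at least 2.11-fold higher and did not pass (limma, adjusted p = 0.0569). That bound sets the mean in HepKO against the lowest signal well above background, or the probe's own WT signal where that was higher. The cholangiocyte median over both pairs was 0.98, and 2.71 with the Feature Extraction ratio. The stricter filter on dim probes left 3 of the 7 cholangiocyte markers. The cholangiocyte mean level was 7.99 and 8.29 in HepKO mice, against 7.05 and 6.89 in WT mice. Hepatocyte markers, which define the labelled cell type, were present in all mice, with a mean level of 14.98 and 15.18 in HepKO mice and 15.53 and 15.30 in WT mice. Of 11 measured, 0 were higher and 1 lower, the cytochrome gene Cyp2e1 at -2.38 ± 0.30, with Hpd at -1.15 ± 0.33 short of the threshold (limma, adjusted p = 0.0889). The hepatocyte median was -0.12. Over the alternatives it ranged between -0.47 with median centring and 0.047 when spots with outlying local background were left out. The part of these cell types in the galectin gene ratios was not tested.

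**Figure D4:**
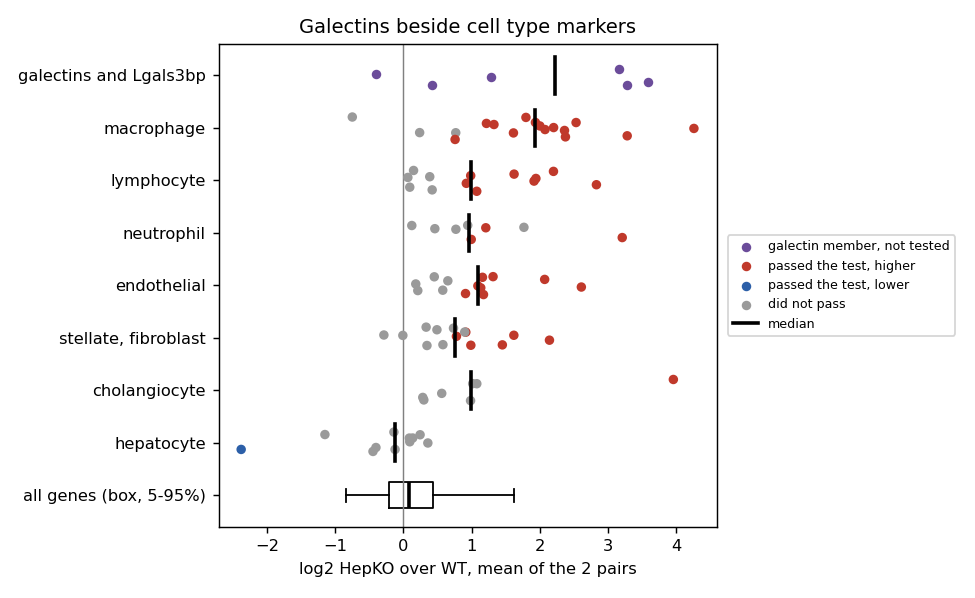
Log2 HepKO over WT (horizontal axis, mean of the 2 pairs) of the 6 galectin genes, of 7 lists of cell type markers and of all 11505 genes, with 1 point per gene, colour for the limma call and a black line at the median. Macrophage markers have a median of 1.94, hepatocyte markers one of -0.12, and the other lists medians of 0.76 to 1.09. The median of the 6 galectin genes, which were chosen on these ratios, is 2.22.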

How the data were processed

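RNA of 2 HepKO and 2 WT mice was compared on 4 arrays. Per the file headers, Agilent Feature Extraction 10.2.1.3 gave the deposited spot intensity values (mean signal and median local background, nothing subtracted) and a deposited log10 ratio, already background-subtracted and dye-normalized. The authors' value table holds that log10 ratio, turned to HepKO over WT (correlation 1.00 or -1.00 with each array). Spots that the scanner software marked as non-uniform or as population outliers (178 to 260 per array) were left out before the background model was estimated, an order taken over from earlier processing of these data. Control spots (1639 of 45018) had weight 0, and no spot was saturated. Background was corrected with normexp (offset 50) and normalized by loess in limma 3.58.1 under R 4.3.3. Deposited intensities were thus turned to log2 ratios of HepKO over WT, and the 2 arrays of a pair were averaged. Levels are each channel after loess and between-array scaling (Aquantile), and can carry dye bias.

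RefSeq accessions named 22951 probes (55.7%) through a GRCm38.p6 table. A probe was kept (22842 of 41174) where either genotype exceeded background on both arrays of a pair, and the brightest stood for a gene. The test was limma with an intercept on 2 pair values, eBayes (1 residual and 3.11 prior degrees of freedom) and Benjamini-Hochberg adjustment over 11505 genes at 0.05. The 4 arrays are dye exchanges of 2 pairs, so the number of pairs limits the precision. The procedure was also run on simulated data, whose outcome is not reported here and is not used as support.

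The galectin genes and all lists were chosen with earlier results of these data known. Named were every galectin gene and probe, up to 4 passing members with the largest absolute ratio per related list, the 2 largest per marker list, the 3 most similar genes per galectin gene, and the check genes. The rest of the passing binding partners and enzymes, Cd163, Sqstm1 and the genes not above background were named after their values were seen. Alternatives changed the background model, source of values, normalization, filter, probe rule, dye orientation and arrays used. One of them, which also left out spots whose local background was marked as a population outlier, was added after seeing the data.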

Additional observations from a re-analysis of the deposited data

How the results depend on the processing

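No galectin gene changed sign under the 14 alternatives, but many of these could not have changed one. The changes of the filter on dim probes left the values of all 6 genes as they were. The brightest probe of each gene had ratios of 1 sign on all 4 arrays, so leaving out arrays could not turn the sign. The Feature Extraction ratio and the authors' table hold the same ratio. The log2 ratios ranged between 3.28 and 4.10 for Lgals3, 3.01 and 3.56 for Lgals1, 2.81 and 3.50 for Lgals3bp, 1.12 and 1.34 for Lgals9, 0.11 and 0.74 for Lgals8 and -0.69 and -0.19 for Lgals4. The median of the 6 was 2.22, and it was 2.02 with median centring, 2.37 with HepKO in Cy5 only, 2.07 with HepKO in Cy3 only, 2.11 in the pair labelled male alone, 1.96 in the pair labelled female alone, and 2.10 to 2.33 with 1 array left out. Genes called over the array numbered 1797 in limma, and 1132 to 2157 with 1 array left out, the lowest without male pair replicate 2. They numbered 0 with the background model estimated on all spots (3024 at an unadjusted p under 0.05, smallest adjusted p 0.0699) and 0 with no filter on dim probes (4638 unadjusted, smallest adjusted p 0.0691). Both settings also gave 0 calls among the related lists in limma, where 9 and 13 glycan enzymes, 12 and 17 binding partners and 9 and 11 vesicle genes were under an unadjusted p of 0.05. Glycan enzymes numbered 6 called, and 2 to 7 with 1 array left out, the lowest without male pair replicate 2 and 3 without female pair replicate 1. Binding partners numbered 9 called, 14 with the Feature Extraction ratio, 14 with the authors' table and 7 to 11 with 1 array left out. Vesicle genes numbered 4 called, 2 with median centring, 7 with HepKO in Cy3 only and 3 to 6 with 1 array left out. Lgalsl was not called, and was called without female pair replicate 2, so that other galectin calls numbered 0 to 1 with 1 array left out. The cause of these changes was not tested. With the Feature Extraction ratio the median of the binding partners was 1.18, and those of lymphocyte, neutrophil and cholangiocyte markers were 2.89, 2.84 and 2.71. With the stricter filter on dim probes the binding partner median was 0.088. The limma fit is itself paired, since each array holds both mice of a pair and its ratio is the paired value. With 1 residual degree of freedom, genes that did not pass are not shown to be alike.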
